A study of Mus musculus with 12 samples.

Results

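Synaptic vesicle release and scaffold genes were measured in basal forebrain and cortex of mice lacking Psen2 and carrying a Cre driven by Chat, and of their controls. The set comprised 32 genes, 20 coding for proteins of the vesicle, the fusion machinery and the active zone and 12 for adhesion molecules, postsynaptic scaffolds and calcium signalling proteins. Each gene was read from the brightest of its probes, out of 37306 gene names on the array. All 32 were on the array, and each read probe was well above background on all 12 arrays.

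A synaptic vesicle is filled with transmitter, held in a pool by synapsins, primed at the active zone by Rims1 and Unc13 proteins, and fused with the membrane by the SNARE proteins Snap25, Stx1a and Vamp when a synaptotagmin senses calcium. Across the cleft, neurexins bind neuroligins, and Dlg4, Shank and Homer proteins hold glutamate receptors and calcium-dependent kinases in place. In forebrain, glutamatergic neurons of the cortex package glutamate with Slc17a7, while many subcortical glutamatergic neurons use Slc17a6.

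The double knockout mice (DKO) had the genotype ChatCre-PS1flox/flox-PS2-/-, and the controls (Con) were Cre--PS1flox/flox-PS2+/-. Both groups thus carried the floxed PS1 alleles, and the Con mice were themselves heterozygous for PS2. Cre acts only in cells that express or once expressed Chat, so PS1 is removed from cholinergic cells while PS2 is absent from every cell. There were 3 mice of each genotype, all 2 months old and labelled as males, and both regions of each mouse were taken as bulk tissue. In such tissue fewer cells of a type and less RNA per cell cannot be told apart.

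Levels are given as log2 processed intensity minus the 75th percentile of the array, so that 0 is that percentile. They compare 1 gene between arrays and say nothing of 1 gene against another. The share of probes well above background lay between 68.9% and 75% by array. Psen2 stood between -1.86 and -1.25 on the 6 DKO arrays and between 0.25 and 0.50 on the 6 Con arrays. Xist was well above background in both regions of DKO mice 1 and 3, at -2.32 to -1.53, whereas Uty, Ddx3y and Eif2s3y, on the Y chromosome, were well above background only on the other arrays. This goes against the label of both mice as male. Results without these mice rest on DKO mouse 2 alone. Chat, the defining cholinergic gene, was higher in basal forebrain by 1.95 in Con and 2.16 in DKO, and all 9 cholinergic markers passed the test in that direction in both genotypes. Slide 1 carried the 6 basal forebrain arrays together with DKO mice 1 and 2 in cortex. Slide 2 carried the other 4 cortex arrays, so region and slide cannot be told apart within Con mice.

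In cortex, most of the 32 genes were more abundant than in basal forebrain. In Con mice 21 were lower in basal forebrain and 2, Sv2a and Cplx1, were higher at an adjusted p under 0.05 (limma, Benjamini-Hochberg over all 26592 genes tested). Over all genes 49% passed that test, 18.5% as higher and 30.5% as lower in basal forebrain. In DKO mice 20 of the 32 were lower and 0 higher, where 39.9% of 25916 genes passed, 19.3% as higher and 20.6% as lower. The median difference of the 32 genes was -0.49 in Con and -0.38 in DKO, beside -0.09 and -0.04 over all genes. The 20 genes lower in DKO were all among the 21 lower in Con, and Shank2 was the remaining one. In 20 genes cortex exceeded basal forebrain in each of the 6 mice, and in the other 12 the mice were mixed. No share over all genes was computed for this count, so it is not read as particular to the set.

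**Figure D1:**
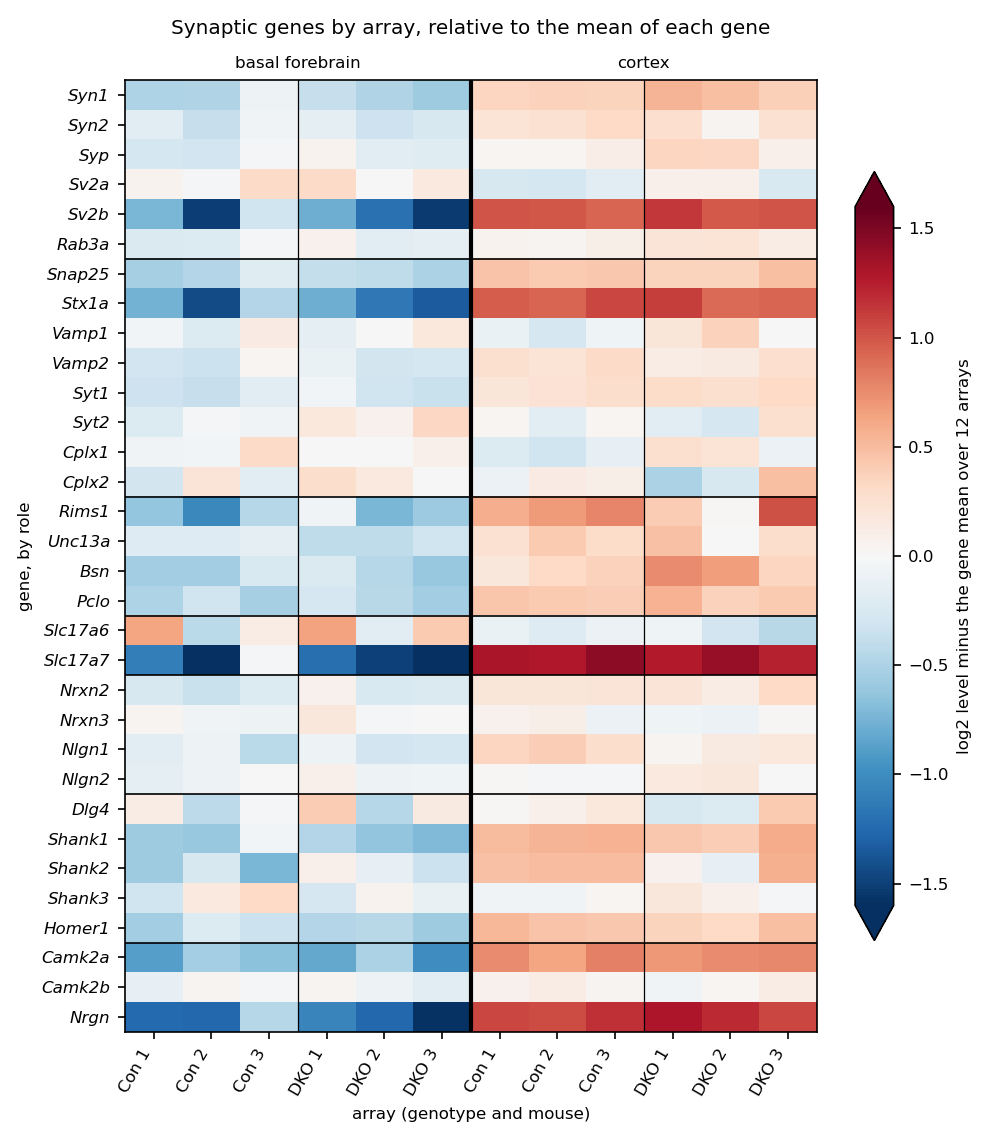
Heat map of the 32 genes (rows, grouped by role) on the 12 arrays (columns), as the log2 level minus the mean of that gene over the 12 arrays. The thick line separates basal forebrain from cortex and the thin lines separate genotypes. Slc17a7, Nrgn, Stx1a and Sv2b are blue in basal forebrain and red in cortex on nearly every array, while rows such as Camk2b and Nrxn3 stay pale.

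**Figure D2:**
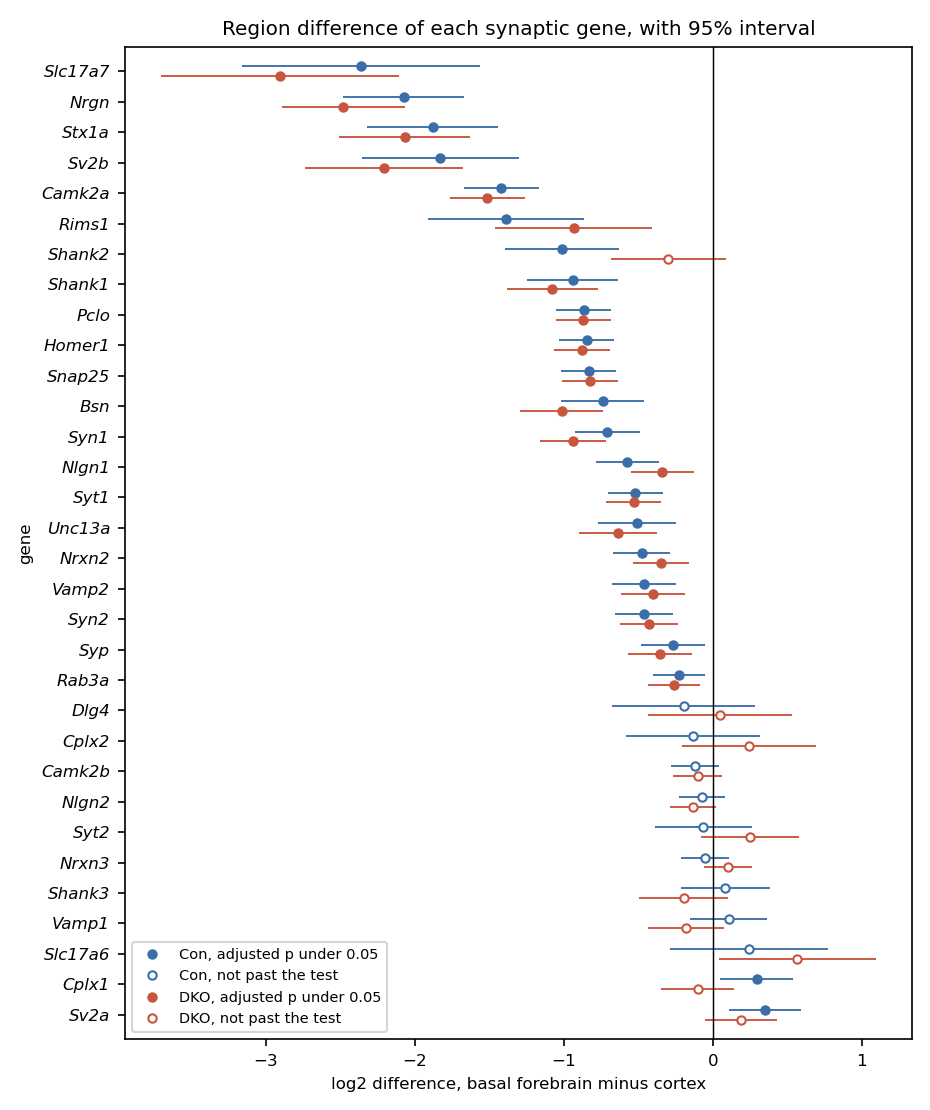
Log2 difference between basal forebrain and cortex for each gene with its 95% interval, from 3 mice per genotype (Con blue, DKO red). Filled points passed an adjusted p under 0.05. The genes run from Slc17a7, at -2.36 in Con and -2.91 in DKO, to Sv2a at 0.35 in Con.

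Of the vesicular glutamate transporters, Slc17a7 was lower in basal forebrain in both genotypes and Slc17a6 passed the unpaired test in neither. Slc17a7, the transporter of cortical glutamatergic neurons, read 0.58, -0.27 and 1.67 in basal forebrain of Con mice 1, 2 and 3, and 2.99, 2.97 and 3.11 in their cortex. In DKO mice it read 0.48, 0.20 and -0.45 in basal forebrain and 2.96, 3.08 and 2.92 in cortex. The regions did not overlap in either genotype, and the cortex arrays lay within 0.19 of each other while the basal forebrain arrays spread over 2.12. The difference was -2.36 (SE 0.37, adjusted p = 0.000356) in Con, a 5.14-fold lower intensity, and -2.91 (SE 0.37, adjusted p = 8.06e-05) in DKO, 7.51-fold lower.

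Slc17a6, the transporter of many subcortical glutamatergic neurons, did not show that pattern. It read 1.50, 0.43 and 0.98 in basal forebrain of Con mice against 0.76, 0.66 and 0.77 in cortex, and 1.51, 0.70 and 1.28 against 0.80, 0.56 and 0.43 in DKO mice. Its regional groups overlapped. The difference was 0.24 (95% interval -0.29 to 0.77, adjusted p = 0.42) in Con and 0.57 (SE 0.24, adjusted p = 0.0821) in DKO, so neither passed the test. With mouse as a block, which pairs both regions of an animal, Slc17a6 was higher in DKO basal forebrain at the same 0.57 (adjusted p = 0.0397).

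**Figure D3:**
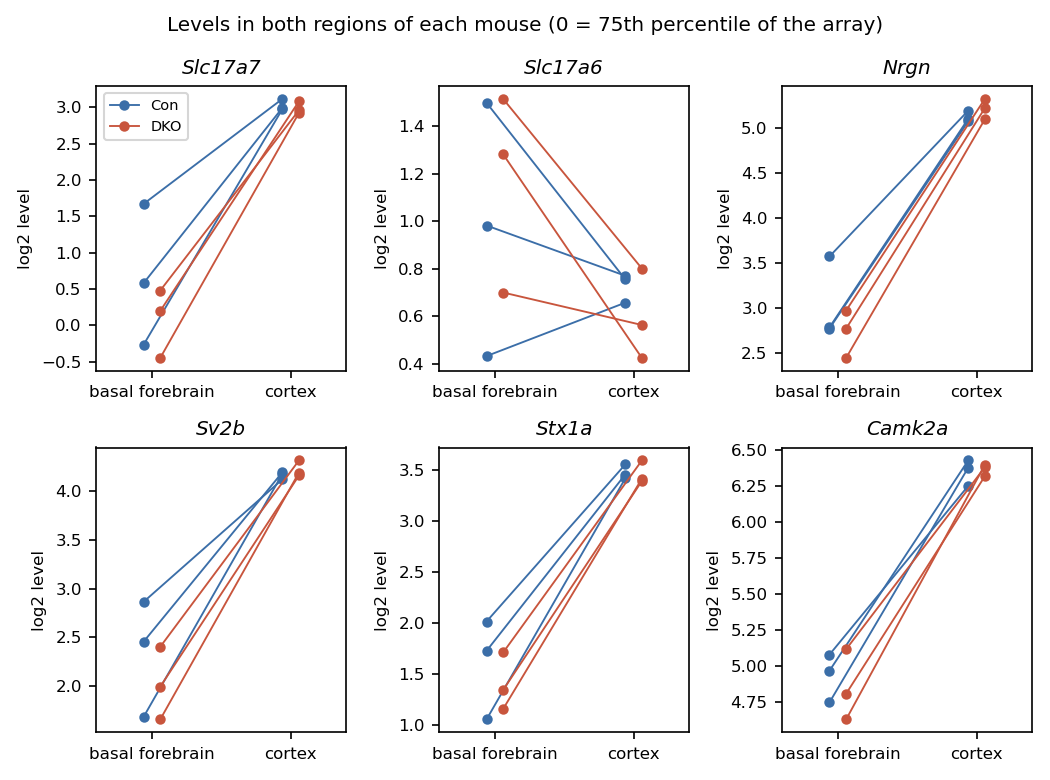
Log2 levels of 6 genes in basal forebrain and cortex, with a line joining both regions of each mouse (Con blue, DKO red, 3 mice each). Each panel has its own vertical scale. Slc17a7, Nrgn, Sv2b, Stx1a and Camk2a rise from basal forebrain to cortex in all 6 mice, whereas the lines of Slc17a6 run both ways.

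Promoters of genes that were far apart between regions are shown beside those of genes that passed the unpaired test in neither genotype. Of the latter, Slc17a6 did pass in DKO with mouse as a block. The RefSeq table of build GRCm38.p6 held 26 of the 32 genes by symbol. The windows are the 250 bases before an annotated transcript start, 5′ to 3′ on the strand of the gene, with capitals for the GC box GGGCGG, a site bound by Sp1-family factors, in either orientation. Slc17a7 (chr7:45163671-45163920, plus strand), Nrgn (chr9:37552746-37552995, minus strand) and Stx1a (chr5:135023232-135023481, plus strand) were lower in basal forebrain. Slc17a6 (chr7:51621580-51621829, plus strand, the upstream of its 2 starts) and Vamp1 (chr6:125215331-125215580, plus strand) passed the test in neither genotype.
Slc17a7: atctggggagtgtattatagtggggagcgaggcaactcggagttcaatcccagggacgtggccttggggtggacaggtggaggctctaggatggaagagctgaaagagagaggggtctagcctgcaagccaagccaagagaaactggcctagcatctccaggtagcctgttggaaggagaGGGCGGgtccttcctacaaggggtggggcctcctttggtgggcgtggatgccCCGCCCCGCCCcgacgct
Nrgn: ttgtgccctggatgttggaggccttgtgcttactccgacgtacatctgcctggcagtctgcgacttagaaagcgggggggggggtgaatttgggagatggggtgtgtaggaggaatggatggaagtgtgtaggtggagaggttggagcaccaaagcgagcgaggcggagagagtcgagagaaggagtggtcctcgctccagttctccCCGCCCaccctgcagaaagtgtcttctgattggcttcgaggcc
Stx1a: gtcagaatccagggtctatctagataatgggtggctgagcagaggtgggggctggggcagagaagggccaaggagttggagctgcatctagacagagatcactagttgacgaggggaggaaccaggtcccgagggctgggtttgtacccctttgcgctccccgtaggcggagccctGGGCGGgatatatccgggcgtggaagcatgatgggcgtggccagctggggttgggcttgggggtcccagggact
Slc17a6: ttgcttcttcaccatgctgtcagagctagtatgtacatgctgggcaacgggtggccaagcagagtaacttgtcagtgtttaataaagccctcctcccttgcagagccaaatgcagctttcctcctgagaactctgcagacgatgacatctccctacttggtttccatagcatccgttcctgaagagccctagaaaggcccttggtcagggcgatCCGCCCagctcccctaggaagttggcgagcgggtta
Vamp1: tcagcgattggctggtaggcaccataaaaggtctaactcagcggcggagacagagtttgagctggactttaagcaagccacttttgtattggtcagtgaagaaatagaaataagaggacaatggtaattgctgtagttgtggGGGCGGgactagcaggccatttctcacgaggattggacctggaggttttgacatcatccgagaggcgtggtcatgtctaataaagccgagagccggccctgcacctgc

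The Slc17a7 window held 3 GC boxes, with a base composition of 61.2% G and C, and the other 4 windows held 1 each, at 50.4% to 62% G and C. Of the 40 windows of the synaptic genes 50% held at least 1 GC box, beside 32.7% of all 32851 windows of this length. Their median share of G and C was 58.4%, beside 52.4% over all windows. The box occurred in 10 of the 15 matched genes that were lower in basal forebrain in both genotypes and in 7 of the 9 that passed in neither. Other motifs were rarer on either strand: the cAMP response element TGACGTCA lay in front of Syn1 alone (1.55% of all windows), the TATA box TATAAA in front of Sv2b alone (12.4%), and the Egr1 motif GCGNGGGCG, which can overlap a GC box, in front of Syn2, Unc13a, Shank3 and Camk2b (4.7%). A match says only that these letters are present.

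Among the 6 genes of the vesicle membrane and pool, 5 were lower in basal forebrain in both genotypes. Sv2b, a vesicle glycoprotein of glutamatergic terminals, stood furthest apart by its read probe. It read 2.45, 1.68 and 2.86 in basal forebrain and 4.19, 4.18 and 4.12 in cortex of Con mice, and 2.40, 1.99 and 1.66 against 4.32, 4.16 and 4.19 in DKO mice. Every cortex array lay above every basal forebrain array, with a difference of -1.83 (SE 0.24, adjusted p = 0.000116) in Con and -2.21 (SE 0.24, adjusted p = 2.77e-05) in DKO. Over the alternatives listed below, the Sv2b difference ranged from -2.12 to -1.04 in Con and from -2.35 to -0.92 in DKO. Sv2b passed each time. Its relative Sv2a, which is found on vesicles of most neurons, was higher in basal forebrain by 0.35 (SE 0.11, adjusted p = 0.0218) in Con and did not pass in DKO at 0.19 (adjusted p = 0.2).

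Syn1, a synapsin that tethers vesicles to each other and to actin, read 4.74, 4.75 and 5.15 in basal forebrain and 5.57, 5.60 and 5.59 in cortex of Con mice. In DKO mice it read 4.87, 4.76 and 4.66 against 5.78, 5.71 and 5.62. The regions did not overlap, and Syn1 was lower in basal forebrain by -0.71 in Con (adjusted p = 0.0002) and -0.94 in DKO (adjusted p = 2.34e-05). Syn2 followed with -0.46 and -0.43, Syp, the membrane protein synaptophysin, with -0.27 and -0.36, and Rab3a, the vesicle GTPase, with -0.23 and -0.26. The Rab3a and Syp calls in Con were not stable. Of 16 alternatives Rab3a lost its call under 9 and Syp under 8. For both these included normexp, quantile normalization and the authors' normalized values. In DKO Rab3a lost its call under 4 of 17 alternatives and Syp under 2.

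Of the 8 genes of the fusion machinery and calcium sensors, 4 were lower in basal forebrain in both genotypes, and Stx1a, the plasma membrane syntaxin, stood furthest apart. Stx1a read 1.73, 1.05 and 2.01 in basal forebrain and 3.46, 3.42 and 3.56 in cortex of Con mice, and 1.71, 1.34 and 1.15 against 3.60, 3.39 and 3.42 in DKO mice. Every cortex array lay above every basal forebrain array. The difference was -1.88 (SE 0.20, adjusted p = 2.36e-05), 3.69-fold, in Con and -2.07 (SE 0.20, adjusted p = 1.08e-05), 4.19-fold, in DKO. Its partner Snap25 was lower by -0.83 in Con and -0.82 in DKO, the vesicle SNARE Vamp2 by -0.46 and -0.40, and the calcium sensor Syt1 by -0.52 and -0.53. Averaged over all its probes, Syt1 turned to 0.57 and 0.87, and Snap25 stood at -0.56 and -0.36.

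By their read probes, the close relatives of these genes did not move with them. Vamp1, the vesicle SNARE of many subcortical and spinal neurons, differed by 0.11 in Con and -0.18 in DKO, and Syt2, the fast calcium sensor of many inhibitory and hindbrain neurons, by -0.06 and 0.25, none past the test. Cplx1, a complexin that clamps and then promotes fusion, was higher in basal forebrain in Con by 0.29 (SE 0.11, adjusted p = 0.0463) and stood at -0.10 in DKO (adjusted p = 0.496). Leaving out any of the 3 Con mice left 0 genes of the set called as higher, so the Cplx1 and Sv2a calls in Con were not stable. Cplx1 in Con also lost its call without DKO mouse 1 or DKO mouse 2, which enter that test only through the shared spread. Cplx2, the complexin more common in excitatory cells, differed by -0.13 and 0.24, not past the test. With slide as a block, Syt2 at 0.41 (adjusted p = 0.0274) and Cplx2 at 0.53 (adjusted p = 0.017) passed as higher in DKO.

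All 4 active zone and priming genes were lower in basal forebrain in both genotypes, at a median of -0.80 in Con and -0.90 in DKO. Rims1, a scaffold that recruits calcium channels and primes vesicles, read -0.80, -1.22 and -0.64 in basal forebrain and 0.40, 0.50 and 0.60 in cortex of Con mice. In DKO mice it read -0.24, -0.92 and -0.76 against 0.22, -0.17 and 0.83. DKO mouse 2 was lowest in cortex for this gene and lay close to the highest basal forebrain array, that of DKO mouse 1, though the regions did not overlap. The difference was -1.39 (SE 0.24, adjusted p = 0.000775) in Con and -0.93 (SE 0.24, adjusted p = 0.00917) in DKO. With slide as a block the Con difference was -0.58 for Rims1 (SE 0.35, adjusted p = 0.348). For Unc13a it was -0.47 (SE 0.21, adjusted p = 0.203), beside -0.51 (SE 0.12) without that block. Thus 2 of the 4 genes no longer passed in Con, while Bsn and Pclo still did. The slide term of that fit rests on DKO mouse 3, the only DKO array of slide 2. A slide effect and lost precision cannot be told apart.

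Bsn, the giant scaffold bassoon, read 3.23, 3.23 and 3.54 in basal forebrain and 3.96, 4.11 and 4.15 in cortex of Con mice, and 3.56, 3.33 and 3.18 against 4.53, 4.45 and 4.13 in DKO mice. No basal forebrain array reached the lowest cortex array. Bsn was lower by -0.74 (adjusted p = 0.000751) in Con and -1.01 (adjusted p = 7.83e-05) in DKO. Pclo, the related scaffold piccolo, was lower by -0.87 in both genotypes, and Unc13a, the main priming factor of excitatory synapses, by -0.51 and -0.63. In Con, Unc13a also lost its call with the mean over probes and without Con mouse 2. Over the alternatives its Con difference ranged from -0.57 to -0.15.

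Of the 4 adhesion genes, 2 were lower in basal forebrain in both genotypes. Nrxn2, a presynaptic neurexin, was lower in basal forebrain by -0.48 in Con and -0.35 in DKO, and Nlgn1, the neuroligin of excitatory synapses, by -0.57 and -0.34. Their relatives did not pass the test by their read probes: Nrxn3 differed by -0.05 and 0.10, and Nlgn2, the neuroligin of inhibitory synapses, by -0.07 and -0.13. The 95% interval of Nlgn2 in Con ran from -0.23 to 0.08.

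Of the 5 postsynaptic scaffold genes, Shank1 and Homer1 were lower in basal forebrain in both genotypes, Shank2 in Con only, and Dlg4 and Shank3 in neither. Shank1, a master scaffold of excitatory spines, read -1.26, -1.30 and -0.73 in basal forebrain and -0.19, -0.15 and -0.14 in cortex of Con mice. In DKO mice it read -1.16, -1.33 and -1.40 against -0.26, -0.30 and -0.10. The groups were apart by -0.94 (SE 0.14, adjusted p = 0.000272) in Con and -1.08 (SE 0.14, adjusted p = 0.000102) in DKO, with Con mouse 3 the highest in basal forebrain.

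Shank2 read -1.02, -0.70 and -1.18 in basal forebrain and 0.03, 0.05 and 0.05 in cortex of Con mice, against -0.37, -0.58 and -0.79 and then -0.38, -0.58 and 0.12 in DKO mice. The regions were level in DKO mice 1 and 2, whose arrays of both regions lay on slide 1, and apart in the 4 mice with the cortex array on slide 2. The difference was -1.01 (SE 0.18, adjusted p = 0.000804) in Con and -0.30 (SE 0.18, adjusted p = 0.2) in DKO. With slide as a block, where the slide term again rests on DKO mouse 3, the Con difference was -0.41 and no longer passed (adjusted p = 0.348). Shank3, the Shank most abundant in striatum, differed by 0.08 and -0.20, and Dlg4, the core scaffold PSD-95, by -0.19 and 0.05. Homer1, which links receptors to Shank proteins, was lower by -0.85 and -0.88.

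Nrgn and Camk2a, whose proteins bind calmodulin in the spines of excitatory forebrain neurons, were lower in basal forebrain in every mouse. Nrgn, the calmodulin-binding protein neurogranin, read 2.78, 2.77 and 3.57 in basal forebrain and 5.10, 5.07 and 5.19 in cortex of Con mice, and 2.97, 2.77 and 2.45 against 5.32, 5.22 and 5.09 in DKO mice. Cortex exceeded basal forebrain on all arrays, by a difference of -2.08 (SE 0.19, adjusted p = 6.73e-06), 4.22-fold, in Con and -2.48 (SE 0.19, adjusted p = 1.63e-06), 5.58-fold, in DKO. Camk2a, the alpha subunit of the calcium and calmodulin kinase, read 4.75, 5.08 and 4.97 against 6.38, 6.25 and 6.43 in Con mice, and 4.81, 5.12 and 4.63 against 6.32, 6.38 and 6.40 in DKO mice.

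The regions again did not overlap for Camk2a, with differences of -1.42 (SE 0.12, adjusted p = 3.19e-06) and -1.51 (SE 0.12, adjusted p = 1.75e-06). Over the alternatives, these ranged from -1.55 to -0.61 in Con and from -1.64 to -0.96 in DKO, and Camk2a passed each time. By its read probe Camk2b, the beta subunit of the same kinase, differed by -0.12 (95% interval -0.28 to 0.04) in Con and -0.10 (-0.27 to 0.06) in DKO and passed in neither.

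Slide moved with region in these comparisons. Slide could be a term in the fit only through the cortex arrays of DKO mice, as mouse 3 against mice 1 and 2. That term, with mouse 3 alone on slide 2, was carried over to Con mice. The SE grew, for Syn1 in Con from 0.10 to 0.18, so a slide effect and lost precision cannot be told apart. With slide as a term, 10 of the 32 genes passed in Con mice, beside 10.8% of all genes. All 10 were lower in basal forebrain and among the 21. They were Syn1, Sv2b, Snap25, Stx1a, Bsn, Pclo, Slc17a7, Homer1, Camk2a and Nrgn. Those that no longer passed were Syn2, Syp, Sv2a, Rab3a, Vamp2, Syt1, Cplx1, Rims1, Unc13a, Nrxn2, Nlgn1, Shank1 and Shank2. Within slide 1 alone, which holds DKO mice 1 and 2 in cortex and all 3 in basal forebrain, 18 passed in DKO, 17 of them among the 20, beside 36% of all genes. On that slide Slc17a7 differed by -2.94, Nrgn by -2.54, Sv2b by -2.22, Stx1a by -2.09, Camk2a by -1.50, Bsn by -1.14 and Syn1 by -0.98. Cplx2 was the added gene, at 0.53 higher in basal forebrain, while Rab3a, Rims1 and Nrxn2 no longer passed. With DKO mouse 2 alone, 12 passed in DKO, beside 13.1% of all genes.

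Other probes of the same genes did not always follow the read probe. The 32 genes had 83 probes, and 21 genes had 42 further probes well above background on all arrays. In Con mice 16 of those passed the test in the direction of the read probe and 7 in the opposite direction, and in DKO mice 20 and 4 did. Those opposite probes were higher in basal forebrain. They belonged to Camk2b, Nrxn3, Syn2, Syt1 and Syt2 in Con and to Snap25, Syn2 and Syt1 in DKO. Syn2 was lower in basal forebrain by its IIb transcript (-0.46 in Con) and not by its IIa transcript (0.15), and a cDNA probe was higher (0.67). Snap25 was lower by variants 2 and 1, at -0.82 and -1.42 in DKO, while the probe of an Ensembl transcript was higher there (1.18). Syt1 was lower by its RefSeq probe, while the probes of 2 Ensembl transcripts stood at 1.20 and 1.03 in Con. Homer1 was lower by all 4 probes, at -0.85 for the long form, -1.16 for form d, -0.73 for the short form and -1.55 for an Ensembl transcript. Pclo was lower by both probes of variant 2, at -0.87 and -0.64, and not by that of variant 1, at 0.13.

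The basal forebrain arrays also varied among themselves in Slc17a7, Nrgn, Stx1a and Sv2b, which separated the regions most. In 25 of the 32 genes the range over the 6 basal forebrain arrays exceeded that over the 6 cortex arrays. The share over all genes was not computed, so this count is not read as a trait of the set. Rims1, Bsn and Unc13a, lower in basal forebrain, were not among the 25. Nrxn3, Nlgn2 and Camk2b, which passed for region in neither genotype, were. The mean of 14 markers of excitatory cortical neurons was -0.67, -1.07 and -1.28 in basal forebrain of DKO mice 1, 2 and 3 and -0.66, -1.26 and -0.46 in Con mice, against 1.06 to 1.22 in cortex. Con mouse 3, highest in these markers, was highest of the 6 basal forebrain arrays in 10 of the 20 genes lower there in both genotypes, among them Slc17a7, Sv2b, Stx1a and Nrgn. DKO mouse 1 was highest in 8 of the 20, among them Rims1 and Bsn, DKO mouse 2 in Camk2a and Con mouse 2 in Homer1. Such counts were made for the 20 genes only, without the share over all genes. Con mouse 2 and DKO mouse 3 were lowest in Slc17a7, Sv2b and Stx1a. Of the 14 markers 11 were lower and 2 higher in basal forebrain in both genotypes. All 10 markers of striatal medium spiny neurons were higher there in both genotypes. Of 10 thalamic markers 7 were higher and 2 lower in Con, and 6 higher and 2 lower in DKO. Of 14 tested markers of septum, preoptic area and hypothalamus 9 were higher in Con and 10 in DKO, and 0 were lower. Of 10 markers of GABAergic neurons 5 were higher and 4 lower in both genotypes. Of 10 choroid plexus markers 7 were lower and 1 higher in Con basal forebrain, and 9 lower and 1 higher in DKO. The part of such cells in the region differences was not tested.

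**Figure D4:**
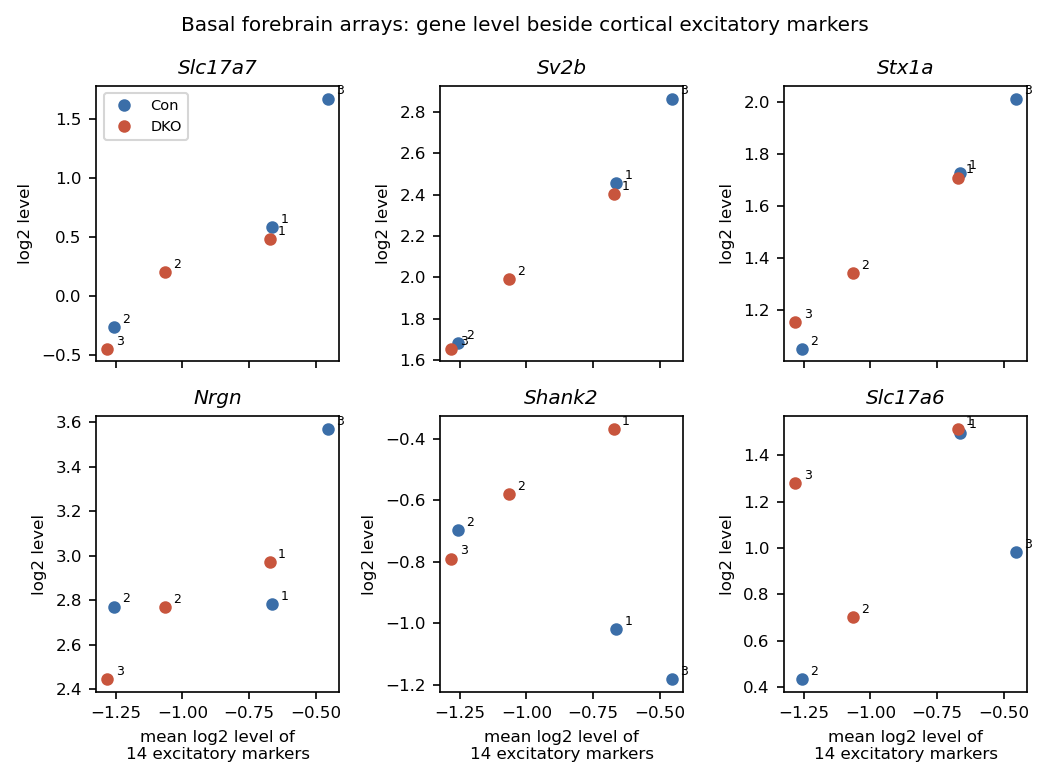
Log2 level of 6 genes (vertical) against the mean log2 level of 14 excitatory cortical markers (horizontal) on the 6 basal forebrain arrays, labelled by mouse number (Con blue, DKO red). Slc17a7, Sv2b and Stx1a run from low at a marker mean of -1.28 to high at -0.46, while Shank2 and Slc17a6 show no such order.

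Of 100 further synaptic genes, 12 were higher and 56 lower in basal forebrain in Con mice, beside 18.5% and 30.5% of all genes. In DKO mice 10 were higher and 60 lower, beside 19.3% and 20.6% of all genes. The medians of the 100 genes were -0.32 and -0.38. Sv2c, the third Sv2 protein and the form of striatum and other subcortical nuclei, was higher by 2.01 in Con and 1.86 in DKO, opposite to Sv2b. Doc2b, a calcium sensor of spontaneous release, was higher by 1.88 and 1.84, while its relative Doc2a was lower by -1.27 and -1.38. Unc13c was higher by 1.35 and 1.70, opposite to Unc13a. Vat1l was higher by 1.16 and 1.33. Cplx3, a complexin of deep cortical neurons, was lower by -2.15 and -2.72, and the scaffold Dlgap1 by -1.29 and -1.57. Cbln2, a secreted partner of neurexins, and Camk2n1, an inhibitor of the kinase of which Camk2a is a subunit, were lower by -1.72 and -1.46 in Con, and Cadps2, a priming factor of dense-core vesicles, by -1.38 in DKO. In the 4 comparisons that follow, 0 of these 100 genes passed the test.

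Genotype made no difference that passed the test in any of the 32 genes in basal forebrain, the region of the cholinergic cell bodies. Over all 26102 genes 8 passed, or 0.0306%, and at an unadjusted p under 0.05 there were 0 of the 32 (4.39% of all genes). The differences, DKO minus Con, ran from -0.58 for Slc17a7 to 0.39 for Shank2, with a median of 0.02. The 95% interval lay within 1 log2 unit of 0, a 2-fold change, for 30 genes, the others being Sv2b and Slc17a7. For Slc17a7 it ran from -1.72 to 0.55.

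Shank2, Syt2, Unc13a and Cplx2 had the smallest p in basal forebrain. Shank2 was 0.39 (SE 0.16) higher in DKO mice, with DKO mouse 3 at -0.79 below Con mouse 2 at -0.70, so that the groups overlapped. Syt2 read -2.05, -2.16 and -1.89 in DKO against -2.44, -2.24 and -2.28 in Con mice, a difference of 0.29 (SE 0.13). Unc13a read -1.88, -1.88 and -1.79 against -1.67, -1.67 and -1.63, a difference of -0.19 (SE 0.10). These 2 genes were the only ones of the 32 whose genotypes did not overlap in basal forebrain, as in 9.95% of all genes tested. Cplx2 read 6.14, 6.03 and 5.87 in DKO against 5.57, 6.08 and 5.68, overlapping, at 0.24 (SE 0.15). All 4 had an adjusted p of 0.973.

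In cortex 0 of the 32 genes passed for genotype, beside 3 of 25798 genes or 0.0116%. At an unadjusted p under 0.05 there were 6 of the 32, an 18.8% share beside 18.9% of all genes. Intervals of all 32 genes lay within 1 log2 unit of 0. Cplx1 read 6.24, 6.21 and 5.89 in DKO against 5.78, 5.67 and 5.85 in Con mice, and Vamp1 3.63, 3.80 and 3.43 against 3.32, 3.16 and 3.37. Both were higher in each DKO mouse than in any Con mouse, by 0.35 (SE 0.10) and 0.34 (SE 0.10), each with an adjusted p of 0.261. Nlgn1 read 1.45, 1.55 and 1.57 in DKO against 1.75, 1.80 and 1.69, below every Con mouse, by -0.22 (SE 0.07, adjusted p = 0.261). Bsn stood at 0.30 (SE 0.11, adjusted p = 0.261) with overlap, because DKO mouse 3 at 4.13 lay under Con mouse 3 at 4.15. Syn1 and Rab3a were the other genes without overlap, 5 of the 32 in all, where 22.4% of all genes did not overlap.

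Slide and mouse coincide in part in cortex. In 20 of the 32 genes both DKO arrays of slide 1 lay outside the range of the 4 arrays of slide 2, as in 57% of all genes tested. For Cplx1 mice 1 and 2 averaged 0.46 above the Con mean and mouse 3 stood 0.13 above it, and for Bsn the figures were 0.42 and 0.05. For Nlgn1 mouse 3 was nearer to mice 1 and 2, with distances from the Con mean of -0.25 for those mice and -0.18 for mouse 3. In Cplx2 mice 1 and 2 read 5.36 and 5.61, below the Con mice at 5.78, 5.99 and 5.96, while mouse 3 read 6.34, above them. Without DKO mouse 3, genotype and slide coincide, and 14 of the 32 genes passed, 8 higher and 6 lower, beside 37.4% of all genes. DKO mouse 2 alone gave 12, beside 29.4% of all genes. With slide as a block, and within slide 2 alone, 0 passed, beside 0.0155% and 0.103% of all genes. Both of these fits rest on DKO mouse 3 as the only DKO array of slide 2, so their 0 says little. The genotype and slide parts of these differences cannot be told apart in DKO mice 1 and 2.

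**Figure D5:**
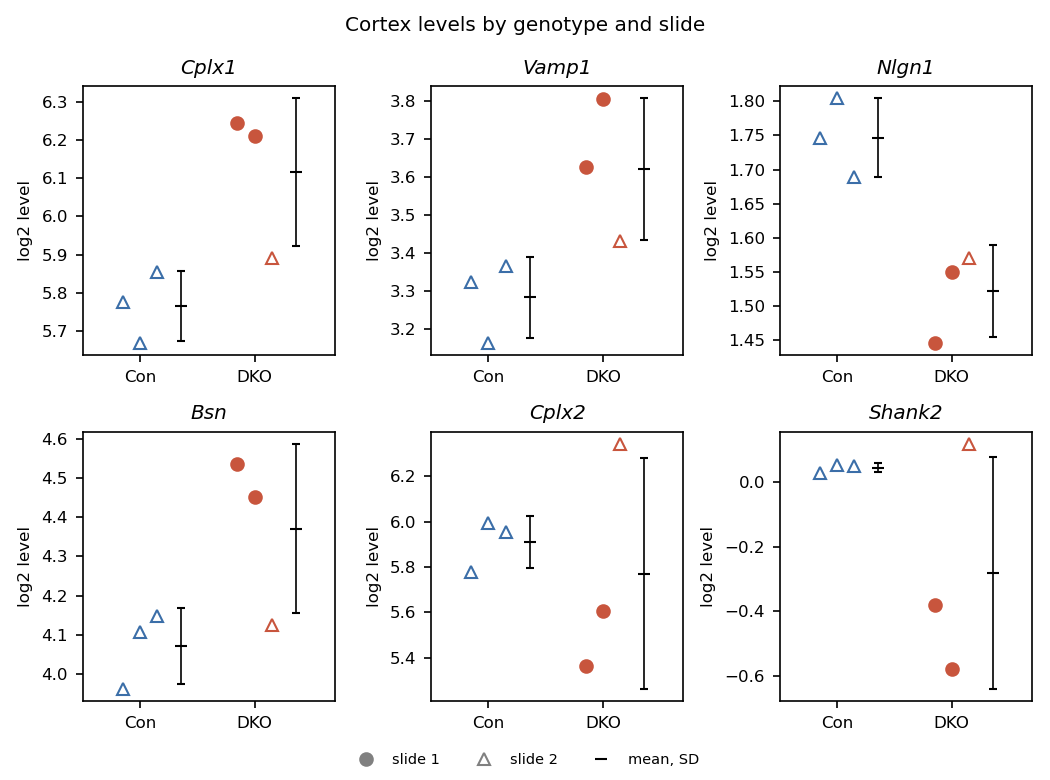
Cortex log2 levels of 6 genes in the 3 Con (blue) and 3 DKO (red) mice, with filled circles for slide 1 and open triangles for slide 2 and bars for the mean and SD of each genotype. DKO mouse 3, the open red triangle, lies nearer to the Con mice than to DKO mice 1 and 2 in Cplx1, Vamp1, Bsn and Shank2. It lies on the far side of the Con mice in Cplx2, and nearer to DKO mice 1 and 2 in Nlgn1.

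Averaged over both regions of a mouse, 0 of the 32 genes passed for genotype, beside 42 of 26959 or 0.156%. At an unadjusted p under 0.05 there was 1, Vamp1, at 0.19 (SE 0.08, adjusted p = 0.457). Cplx1 at 0.15, Homer1 at -0.11 and Syp at 0.15 followed, with adjusted p of 0.498 to 0.506. For Syp, DKO mice read 5.50, 5.28 and 5.25 in basal forebrain against 5.16, 5.14 and 5.42, and 5.79, 5.78 and 5.53 in cortex against 5.48, 5.48 and 5.55. For Homer1 they read 2.06, 2.09 and 1.96 against 1.98, 2.32 and 2.19 in basal forebrain, and 2.89, 2.85 and 3.01 against 3.07, 2.99 and 2.97 in cortex. Both genes overlapped between genotypes in both regions.

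The interaction, which is the basal forebrain difference between genotypes less the cortical one, passed for 0 of the 32 genes, as for 0% of all 26959 genes, and at an unadjusted p under 0.05 there were 2 of the 32 and 8.36% of all. Shank2 was furthest, at 0.71 (SE 0.25, adjusted p = 0.562), followed by Cplx1 at -0.40 (SE 0.16), Vamp1 at -0.29 (SE 0.17) and Nlgn1 at 0.23 (SE 0.14). Slc17a7 stood at -0.55 (SE 0.52). The region differences of Shank2, Sv2a and Cplx1, which passed in Con mice and not in DKO mice, were therefore not shown to differ between genotypes. Without DKO mouse 3, Shank2 alone passed the interaction test, at 1.02 (adjusted p = 0.0251, where the other alternatives gave 0.13 to 1), again with slide and genotype aligned in cortex.

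Few markers of blood cells passed for genotype, but their means did not overlap between genotypes. Of 12 peripheral leukocyte markers 2 were higher in DKO basal forebrain and 1 in DKO cortex, and of 6 red cell markers 0 passed. The mean of the red cell markers ran from 1.98 to 3.49 in DKO and 0.35 to 0.57 in Con basal forebrain, and from 1.89 to 3.00 against 0.37 to 0.80 in cortex. The mean of the leukocyte markers ran from -2.64 to -2.18 against -4.72 to -4.37 in basal forebrain and from -2.63 to -1.94 against -4.73 to -4.09 in cortex. The mean of 10 endothelial markers, of which 0 passed, ran from 0.91 to 1.23 against 0.71 to 0.80 in basal forebrain and from 0.94 to 1.01 against 0.58 to 0.82 in cortex. In cortex the median difference of microglial and of oligodendrocyte markers was -0.28 each, with 0 of 10 passing. The mean of 10 pan-neuronal markers ran from 5.28 to 5.56 in DKO and 5.25 to 5.45 in Con basal forebrain, and from 5.42 to 5.57 against 5.55 to 5.57 in cortex. The part of these cells in the synaptic values was not tested.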

How the data were processed

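RNA from both regions of 6 mice was hybridised to 12 Agilent arrays in 1 colour. Per the file headers, Agilent Feature Extraction 10.7.1.1 made a background-subtracted processed intensity per spot, with no scaling between arrays. The authors' deposited series table adds normalized log2 values, used here as an alternative, for which the sources used here do not give the method. Probe positions in the files are in mm9.

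Unflagged spots of a probe were averaged on the log2 scale, 37 of 56605 probes were left out, and the 75th percentile of each array was subtracted. A gene was read from its probe of highest mean over 12 arrays, and entered a comparison if 1 or more of the groups compared had it well above background throughout. Differences were tested with limma 3.58.1 in R 4.3.3 (lmFit, eBayes with trend), with Benjamini-Hochberg adjustment over all genes tested. Each region was fitted on its 6 arrays for genotype, and region and interaction on all 12. The code was tested on simulated data.

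The genes, the lists and the naming rule were chosen with earlier results of these data known. Values by array were given for the 8 genes furthest apart among those past the test in each region comparison, and for the 4 genes of smallest p in the others. Up to 4 genes of the wider list were named per comparison and direction, plus Doc2a, whose Con value was added beside Doc2b. Promoters, slide values and further probes were picked after values were seen.

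Regions of a mouse are paired by the animal. Deviations from the group means of the same mouse in both regions correlated at 0.21, 0.31 and 0.39 in Con and at -0.01, 0.15 and -0.09 in DKO mice. Replicate numbers of DKO and Con mice are only names. Alternatives were normexp with an offset of 50, quantile normalization, the filter on dim probes, the mean over probes, no variance trend, slide, single mice left out and the replicate block. The number of arrays limits the precision.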

Additional observations from a re-analysis of the deposited data

How the results depend on the processing

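The number of the 32 genes past the test stayed within 1.5 times its value in all 6 comparisons under normexp, quantile normalization, the authors' normalized values, both filters on dim probes, the mean over probes and no variance trend. Which genes were called did change. With quantile normalization and with the authors' values, Rab3a and Syp were no longer called for region in Con, nor Nlgn1 in DKO. Under both, 2 genes were called higher in DKO basal forebrain, where the main fit had 0. In cortex, genotype gave 0 genes, but 12 with DKO mouse 2 alone, and leaving out 1 mouse gave 0 to 14, the latter without DKO mouse 3. The interaction gave 0 to 1 with 1 mouse left out. For region, Con mice gave 23 genes, 18 to 23 with 1 mouse left out and 10 with slide as a block. DKO mice gave 20, 16 to 21 with 1 mouse left out and 12 with DKO mouse 2 alone, where a lone mouse is assumed to vary like the other groups. With the replicate block, genotype and interaction gave 0 genes, and the paired fit by mouse gave 22 for region in Con, all among the 23, and 21 in DKO, including all 20, with Slc17a6 added and Rab3a lost in Con. Among genes called for region, direction turned with the mean over probes and with slide as a block. With the mean over probes Syn2 stood at 0.12 in Con and 0.10 in DKO and Syt1 at 0.57 and 0.87, and with slide as a block Cplx1 stood at -0.041 in Con. Counting genes that did not pass, 9 of the 32 turned in Con with slide as a block, 5 in Con and 3 in DKO with the mean over probes, 4 and 2 with quantile normalization and with the authors' values, and 3 in DKO with DKO mouse 2 alone. Over all alternatives run, 10 of the 23 Con calls and 11 of the 20 DKO calls passed each time. The causes were not tested.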
